A study of Homo sapiens with 6 samples.

Results

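The cyclins, the cyclin-dependent kinases (CDKs), the CDK inhibitors, the CDC25 phosphatases and the kinases WEE1 and PKMYT1 were followed in HT29 colon adenocarcinoma cells treated or not with NS398, which selectively inhibits the prostaglandin-forming enzyme cyclooxygenase-2 (COX2). A list of 40 genes was read from the probe sets whose platform annotation names 1 of these genes alone, and 39 of the 40 genes have such probe sets, 97 in number, of 54675 probe sets and 19775 genes in all. CDKN2C was not analysed here. The study asked how the inhibitor changes gene expression in these cells. Total RNA was hybridised on HG-U133 Plus 2.0 arrays, 3 labelled NS398-treated and 3 labelled control, 1 array per sample. According to the methods of the study, the treated cells were kept without FCS for 72 h with 100 µM NS398 added from a DMSO solution, and 0.1% DMSO served as control, with the medium of the controls not stated separately. HT29 is 1 established cell line, and the arrays hold 1 dose and 1 time.

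A cyclin is the regulatory subunit that switches on a CDK. D-type cyclins with CDK4 and CDK6, E-type cyclins with CDK2, cyclin A with CDK2 and CDK1, and B-type cyclins with CDK1 drive the cell from G1 through S phase into mitosis, whereas a separate set of cyclins and CDKs phosphorylates RNA polymerase II and serves transcription. INK4 proteins bind CDK4 and CDK6, CIP/KIP proteins bind cyclin-CDK complexes, WEE1 and PKMYT1 place inhibitory phosphates on CDKs, and CDC25 phosphatases remove them.

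Each deposited value is a probe set signal on a linear scale, scaled to a trimmed mean of 500 in every array, and the number of arrays limits the precision. The study calls the 3 samples of a group biological replicates. Neither the labels nor the methods say how they were divided among cultures, so the p-values refer to the spread of these samples only. The median log2 signal of all probe sets was 6.15 ± 0.15 (SD, n = 3) in the controls and 6.28 ± 0.04 under NS398, a shift of 0.12 (exact permutation test, p = 0.3). The medians of the arrays overlapped, with 6.02 to 6.32 in the controls and 6.25 to 6.33 under NS398. This shift was not removed before the tests. For ACTB, signal at the 3′ control probe set over that at the 5′ one, which reflects RNA integrity, was 1.27 to 1.32 in the controls and 1.45 to 1.71 under NS398 (exact permutation test, p = 0.1, the smallest that 3 against 3 arrays allow), and the GAPDH ratio was 1.03 ± 0.06 and 1.10 ± 0.09. Signal of the 18S rRNA control was 3453 to 4856 in the controls and 4825 to 23625 under NS398. Of 10 epithelial markers, EPCAM was between 23145 and 28427 in every array, whereas the intestinal factors CDX1 and CDX2 were dim (signals up to 45.8 and 89.5), KRT20 and CEACAM5 were higher under NS398 and VIL1 was lower. The summed signal of 7 fibroblast markers was 615.9 to 824 in the controls and 846.9 to 1041 under NS398, with LUM alone past the test. Of 4 leukocyte markers the defining PTPRC stayed at 43.1 or below while LYZ was between 25454 and 33637, and the 4 endothelial markers summed to 165.1 to 291.2. The part of these control and marker values in the results was not tested.

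Most regulators of cell division were lower in the NS398-labelled arrays, the transcriptional cyclins and CDKs were divided between small increases and decreases, and among the CDK inhibitors CDKN2B was higher. Each probe set was tested on the log2 scale with limma, with a prior variance that follows the signal level, and called at an adjusted p (Benjamini-Hochberg over all 54675 probe sets) under 0.05. A gene was read from its brightest probe set. Directions follow the deposited labels and, for CDKN3, a member whose direction the text of the study gives, are opposite to that text. Of the 39 genes, 14 fell and 2 rose, where 4.85% of all 19775 genes were called lower and 5.23% were called higher. Among genes whose log2 signal averaged more than 7 (a signal of 128) these shares were 8.66% and 9.06%, and the 14 and the 2 called genes were all among the 37 members above that level. Leaving out NS398 array 1 left 9 of the 14 falls. By plain limma, with 1 prior variance for all probe sets, 0 of the 39 genes passed, as did 0.0439% of all probe sets, and 19 of the 39 genes had an unadjusted p under 0.05, compared with 17.6% of all genes. In RNA of whole cultures, fewer cells that express a gene and less RNA of it per cell cannot be told apart.

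The 13 cell cycle cyclins and CDKs had a median difference of -0.97 (NS398 minus control, log2) and 9 of them fell. The 10 transcriptional cyclins and CDKs had a median of -0.01, with 1 fall and 1 rise. The 6 INK4 and CIP/KIP inhibitors had a median of -0.15, with 0 falls and 1 rise. Over all genes the median was 0.06, with 4.85% called lower and 5.23% called higher. Above a log2 signal of 7 these shares were 8.66% and 9.06%. The class counts and medians describe the lists and were given no test of their own.

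**Figure D1:**
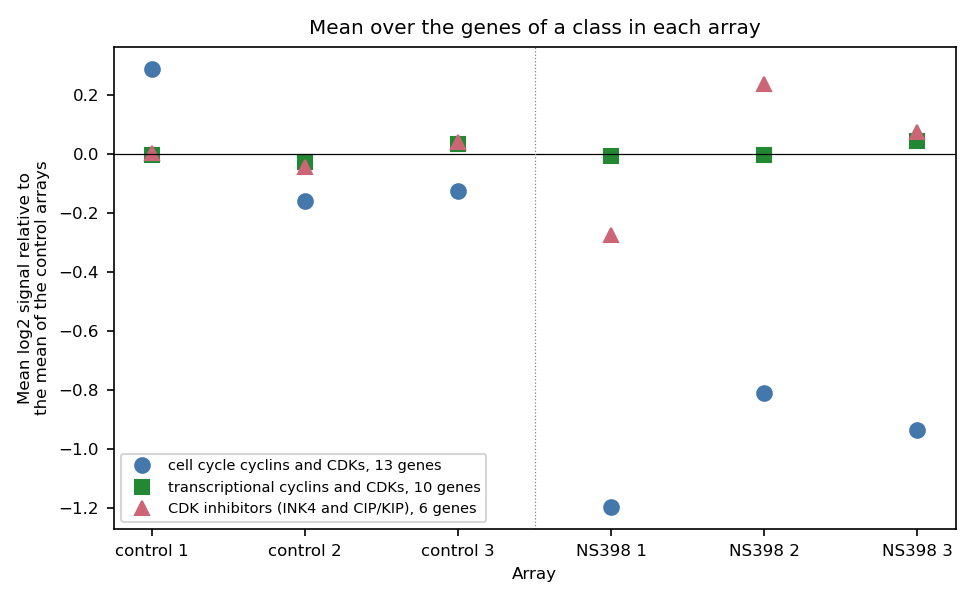
Mean log2 signal over the genes of a class in each of the 6 arrays, relative to the mean of the control arrays, for 13 cell cycle cyclins and CDKs (circles), 10 transcriptional cyclins and CDKs (squares) and 6 CDK inhibitors (triangles). The circles lie between -0.16 and 0.29 in the controls and between -1.20 and -0.81 under NS398, whereas the squares stay between -0.03 and 0.04 in all 6 arrays.

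Averaged over the genes of a class, the cell cycle cyclins and CDKs stood at 0.29, -0.16 and -0.13 in control arrays 1, 2 and 3 and at -1.20, -0.81 and -0.94 in NS398 arrays 1, 2 and 3. The transcriptional class stood at -0.01, -0.03 and 0.03 in the controls and at -0.01, -0.00 and 0.04 under NS398. The CDK inhibitors stood at 0.00, -0.04 and 0.04 in the controls and at -0.27, 0.24 and 0.08 under NS398. The groups of arrays were apart in the first of these 3 classes and overlapped in the other 2. Without control array 1, the highest of the controls, the median of the cell cycle class was -0.76.

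Of the 9 cell cycle cyclins, 6 fell, and 5 of these by more than 2-fold. CCNA2, cyclin A2 of S and G2 phase, had signals of 2117, 1325 and 1719 in control arrays 1, 2 and 3 and of 456, 707 and 585 in NS398 arrays 1, 2 and 3. The difference was -1.56 ± 0.20 (SE of the limma fit; adjusted p = 0.00106), a 2.95-fold fall. Every treated array was below every control. CCNB1, the mitotic cyclin B1, had 3519, 2498 and 3018 in the controls and 875, 1617 and 1052 under NS398, a difference of -1.39 ± 0.21 (adjusted p = 0.00256). CCNB2, cyclin B2, had 6419, 5484 and 5827 in the controls and 1713, 2718 and 2269 under NS398, a difference of -1.43 ± 0.15 (adjusted p = 3.73e-04). In both B-type cyclins NS398 array 1 was the lowest and NS398 array 2 the highest of the treated arrays, and the groups were well apart. CCNF, which as cyclin F is the substrate-binding part of a ubiquitin ligase and not a partner of a CDK, had 758, 518 and 539.7 in the controls and 182, 239 and 208 under NS398, a difference of -1.52 ± 0.21 (adjusted p = 0.00161).

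Of the E-type cyclins, which open S phase with CDK2, CCNE2 passed and CCNE1 did not. CCNE2 had signals of 423, 289.5 and 337 in the controls and 66.6, 127 and 94.9 under NS398, a difference of -1.89 ± 0.29 (adjusted p = 0.00294) or 3.72-fold, and its second probe set passed with -1.51. CCNE1 had 950.4, 604 and 686 in the controls and 557, 466 and 666 under NS398. Its groups overlapped, since NS398 array 3 exceeded control array 2, and its difference of -0.40 ± 0.20 did not pass (adjusted p = 0.338; 95% interval -0.84 to 0.05).

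Of the D-type cyclins, which carry growth signals to CDK4 and CDK6 in G1, only CCND3 passed. CCND3 had signals of 1783, 1192 and 1318 in the controls and 730.3, 972 and 879.8 under NS398, a difference of -0.72 ± 0.18 (adjusted p = 0.0326). This call was lost without control array 1 (adjusted p = 0.0642), control array 3 (0.09), NS398 array 1 (0.138), NS398 array 2 (0.0616) or NS398 array 3 (0.0821). CCND1, a common target of growth factor and WNT signals, had 1679, 1547 and 1657 in the controls and 1013, 1233 and 1359 under NS398. Every treated array was below every control, but the difference of -0.45 ± 0.14 did not pass (adjusted p = 0.0881). CCND2 was dim, with 127, 80.3 and 34.8 in the controls and 73.9, 60.4 and 71.6 under NS398, and a difference of -0.05 with an interval of -1.16 to 1.06. The 3 other probe sets of CCND2 were dimmer still and differed by 2.77 (adjusted p = 0.0981), 0.15 and -0.53, and none of the 4 passed.

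Of the 4 cell cycle CDKs 3 fell, by unequal amounts. CDK1, the kinase of mitotic entry, had signals of 6408, 5244 and 5438 in the controls and 1229, 2034 and 1232 under NS398. Its difference was -1.96 ± 0.18 (adjusted p = 1.43e-04), a 3.9-fold fall, with the highest treated array far below the lowest control. CDK2, the partner of cyclins E and A, had 2289.7, 1422 and 1505 in the controls and 769, 963 and 878 under NS398, a difference of -0.97 ± 0.18 (adjusted p = 0.00943). CDK6 had 4123, 3477 and 3515 in the controls and 2317, 2717 and 3002 under NS398, a difference of -0.47 ± 0.13 (adjusted p = 0.0493). CDK6 lay just inside the threshold, and its call was lost without control array 1 (0.0945), 2 (0.0729) or 3 (0.117) or NS398 array 1 (0.195) or 2 (0.143). All 7 probe sets of CDK6 were lower under NS398, and 2 of them passed. The second of these differed by -0.66 (adjusted p = 0.00373). The next in brightness differed by -0.21 and did not pass (adjusted p = 0.518). CDK4, which shares the D-type cyclins with CDK6, had 8757, 8063 and 8480.3 in the controls and 8077, 8554 and 9325 under NS398. The difference of CDK4 was 0.04 ± 0.09 (adjusted p = 0.895), and its 95% interval of -0.17 to 0.24 leaves out a fall of the size measured in CDK2 or CDK1.

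**Figure D2:**
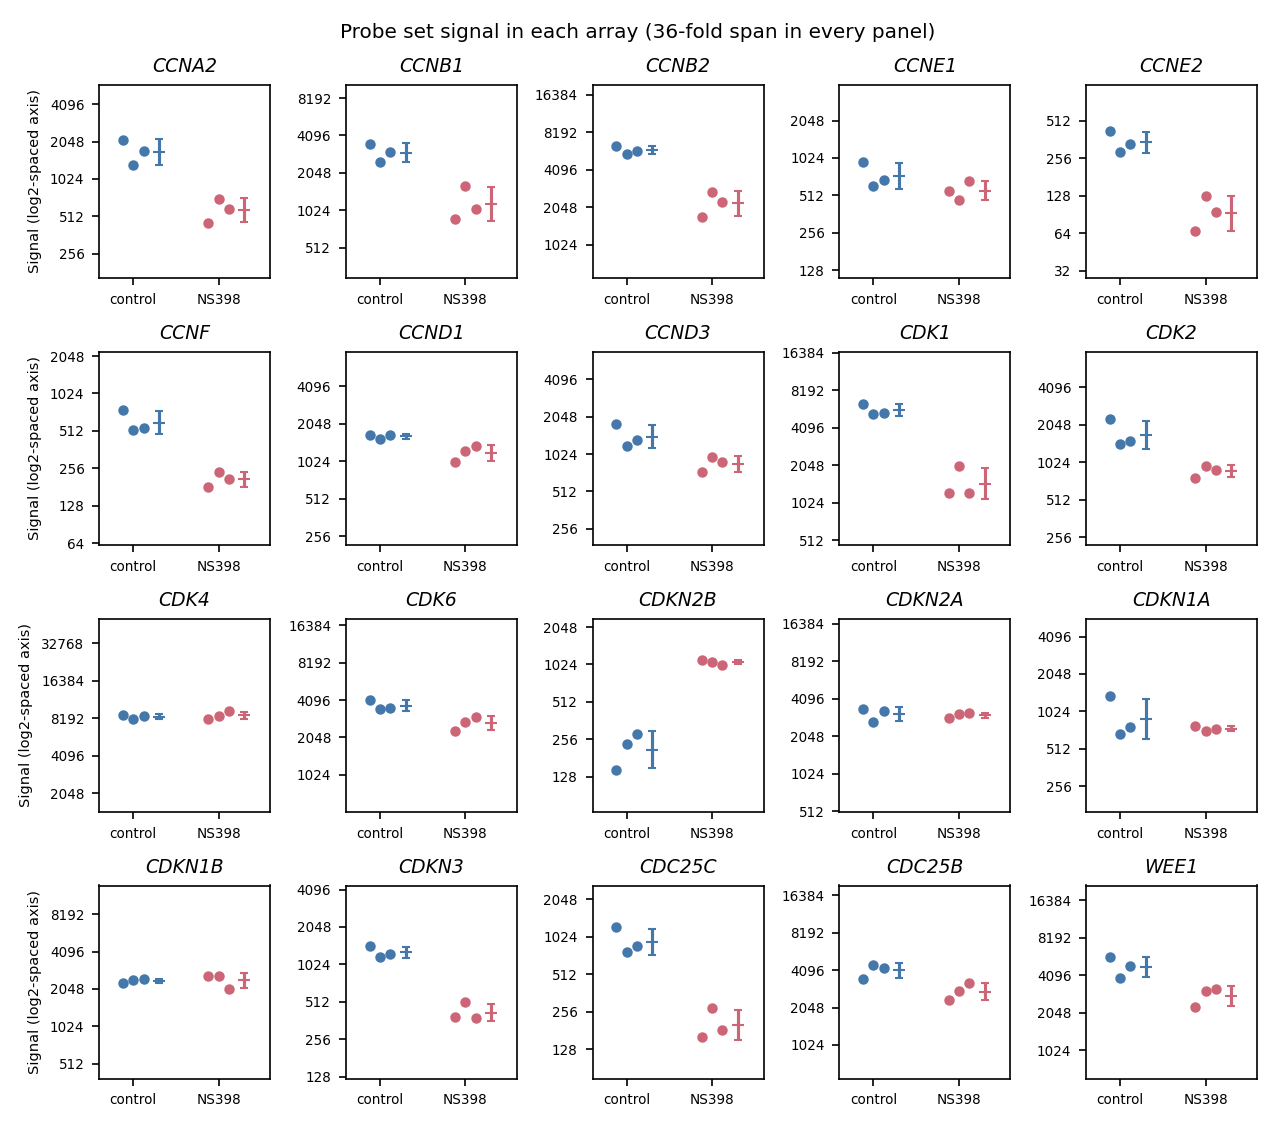
Probe set signal in each array for 20 of the 39 genes, on log2-spaced axes that all span the same fold range, with control arrays (blue) left and NS398 arrays (red) right, each in the order 1, 2, 3 and with the geometric mean and SD of the log2 signals beside the points. CDK1, CCNB2, CDKN3 and CDC25C show wide gaps downwards and CDKN2B a wide gap upwards, whereas the points of CDK4, CDKN2A and CDKN1B lie level.

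Differences between members of the same family were computed within each array, for 8 pairs chosen after the values were seen, so that they are given with no test. Relative to the control mean, the log2 ratio of CDK1 to CDK4 stood at 0.12, -0.05 and -0.07 in the controls and at -2.15, -1.50 and -2.35 under NS398. The ratio of CDK2 to CDK4 changed by -1.01 and that of CDK6 to CDK4 by -0.51. Averaging all probe sets of a gene gave -0.58 for CDK2 and -0.43 for CDK6, neither past the test. The ratio of CCNE2 to CCNE1 changed by -1.50, with -1.98, -0.79 and -1.72 in the NS398 arrays. The ratio of CCNB1 to CCND1 changed by -0.94. Such ratios show unequal change and not that the second gene of a pair was constant.

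The transcriptional cyclins and CDKs gave 1 rise and 1 fall among 10 genes, both under 1.5-fold. All 10 averaged a log2 signal of more than 7, where 9.06% of all genes rose and 8.66% fell. The counts of this class are thus near those shares. CCNH, the cyclin of CDK7 in the general transcription factor TFIIH and in the CDK-activating kinase, had signals of 2443, 2432 and 2448 in the controls and 3394, 3471 and 3215 under NS398. The 3 controls lay within a narrow range, every treated array was above them, and the difference was 0.46 ± 0.10 (adjusted p = 0.0186). CDK7 itself had 2132, 2326 and 2275 in the controls and 2825, 3014 and 2830.4 under NS398, a difference of 0.37 ± 0.10 that did not pass (adjusted p = 0.0651), with groups that did not overlap. MNAT1, the assembly factor of the same complex, differed by 0.21 ± 0.21 (adjusted p = 0.665). CCNK, a cyclin of the elongation kinases CDK12 and CDK13, had 1496, 1369 and 1405 in the controls and 897, 965 and 1087 under NS398, a difference of -0.54 ± 0.13 (adjusted p = 0.0315). CDK12 and CDK13 differed by -0.08 and -0.07 and did not pass (adjusted p = 0.832 and 0.817). Neither call held in every alternative. Over the 14 alternatives counted under the processing, the call of CCNH held in 9 and that of CCNK in 7. Both held after quantile normalisation (adjusted p = 0.0162 and 0.0305). The call of CCNH was lost when arrays were centred on their medians (0.252) and without NS398 array 1 (0.0818), NS398 array 2 (0.11) or control array 3 (0.076). That of CCNK was lost without control array 1 (0.0524), 2 (0.0628) or 3 (0.108) or NS398 array 1 (0.135) or 2 (0.127).

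The other 7 transcriptional genes lay between -0.22 and 0.25 and did not pass. CDK8, the kinase of the Mediator complex, had 1549, 1491 and 1655 in the controls and 1775, 1751 and 2049 under NS398, a difference of 0.25 ± 0.12 (adjusted p = 0.313) with groups that did not overlap, and its partner CCNC differed by 0.11 ± 0.11. CDK9, the kinase of the elongation factor P-TEFb, differed by -0.22 ± 0.19, and its cyclins CCNT1 and CCNT2 by -0.06 ± 0.13 and 0.04 ± 0.15. CCNL1 and CCNL2, cyclins linked to splicing, differed by -0.11 ± 0.11 and -0.17 ± 0.11. The intervals of CCNC, CCNL1, CCNL2, CCNT1 and CCNT2 lay between -0.41 and 0.36.

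CDKN2B, which encodes the INK4 protein p15, showed the largest increase among the brightest probe sets of the 39 genes. Its signals were 144, 233 and 283 in the controls and 1109.7, 1074 and 1023 under NS398, a rise of 2.33 ± 0.23 (adjusted p = 2.20e-04), or 5.04-fold. The treated arrays lay close together, and the lowest of them was more than 3 times the highest control. A dimmer probe set of CDKN2B had 27.8, 24.3 and 56 in the controls and 174.5, 148.8 and 67.3 under NS398, a difference of 1.84 that missed the threshold (adjusted p = 0.0655). CDKN2A, the neighbouring gene that encodes the INK4 protein p16 and the ARF protein, had 3418, 2675 and 3293 in the controls and 2861, 3078 and 3129 under NS398. The difference of CDKN2A was -0.04 ± 0.12 (adjusted p = 0.902; 95% interval -0.30 to 0.22), and the within-array ratio of CDKN2B to CDKN2A changed by 2.38. CDKN2D, the INK4 protein p19, was dim, with 143, 108 and 83.5 in the controls and 15.1, 100.4 and 76.7 under NS398. Its groups overlapped, NS398 array 1 was far below the other arrays, and the difference of -1.16 ± 0.65 did not pass (adjusted p = 0.387).

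None of the 3 CIP/KIP inhibitors passed. CDKN1A, the p53 target p21, had signals of 1353, 673 and 765 in the controls and 778, 714 and 741 under NS398, a difference of -0.25 ± 0.23 (adjusted p = 0.631; 95% interval -0.75 to 0.25). Control array 1 stood apart from the other 5 arrays, and without it the difference was 0.05. CDKN1B, which encodes p27, had 2286, 2402 and 2454 in the controls and 2584, 2625 and 2055 under NS398, a difference of 0.02 ± 0.12 (adjusted p = 0.967; 95% interval -0.26 to 0.29). CDKN1C, which encodes p57, had 417, 681 and 726 in the controls and 296, 384 and 327 under NS398. The groups of CDKN1C did not overlap, and its difference of -0.82 ± 0.23 was just outside the threshold (adjusted p = 0.0573). All 5 probe sets of CDKN1C were lower under NS398. The call was gained by leaving out control array 1 (adjusted p = 0.00694) but no other array, and in 5 of the 14 alternatives in all.

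CDKN3 carries the name of an inhibitor but encodes a phosphatase that removes the activating phosphate of CDKs, and it fell with the mitotic genes. It had 1437, 1184 and 1247 in the controls and 388, 506 and 377 under NS398, a difference of -1.61 ± 0.16 (adjusted p = 2.64e-04), and both of its probe sets passed. CDC25C, the phosphatase that activates CDK1 with cyclin B, had 1223, 774 and 866 in the controls and 159.8, 273 and 184 under NS398. Its difference was -2.23 ± 0.24 (adjusted p = 3.73e-04), and at 4.68-fold this was the largest fall among the brightest probe sets of the 39 genes. CDC25B had 3475, 4542 and 4285 in the controls and 2362, 2758 and 3211 under NS398, a difference of -0.56 ± 0.14 (adjusted p = 0.037). This call was lost without control array 2 (0.118) or 3 (0.148) or NS398 array 1 (0.158) or 2 (0.125), and the within-array ratio of CDC25C to CDC25B changed by -1.66. CDC25A, which activates CDK2 at the entry into S phase, had 513, 266 and 251 in the controls and 57.9, 140.0 and 185 under NS398. The groups of CDC25A did not overlap, but its arrays were widely spread. Its difference of -1.50 ± 0.42 did not pass (adjusted p = 0.062). Of the omissions of 1 array, only that of NS398 array 3 let it pass (0.0459), and it passed in 4 of the 14 alternatives.

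The kinases that oppose CDC25 were lower as well. WEE1 had signals of 5704, 3909 and 4861 in the controls and 2278, 3069 and 3195 under NS398, a difference of -0.76 ± 0.16 (adjusted p = 0.0174), and its second probe set passed with -1.17. The call of the brighter probe set was lost without control array 3 (0.0808) or NS398 array 1 (0.076). PKMYT1 had 878, 702 and 474 in the controls and 275, 407 and 439.8 under NS398, with groups that did not overlap and a difference of -0.86 ± 0.25 that did not pass (adjusted p = 0.0724). It passed without control array 3 (0.0432) but without none of the other arrays, and in 3 of the 14 alternatives in all. Thus transcripts of both the activating and the inhibiting enzymes of CDK1 were lower, although only part of them passed.

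The 4 members with other roles did not pass. CDK5, a kinase known from neurons, had 1502, 1328 and 1368 in the controls and 913, 1196 and 1202 under NS398, a difference of -0.35 ± 0.14 (adjusted p = 0.214). CCNI, an atypical cyclin, had 14075, 16682 and 15146 in the controls and 18246, 18146 and 17884 under NS398, a difference of 0.25 ± 0.09 (adjusted p = 0.146). In both genes the groups did not overlap. CCNG1, a p53 target, differed by -0.11 ± 0.08 and CCNY by 0.02 ± 0.11, each with overlapping groups. Counting all 39 genes, 19 were lower and 5 higher with groups that did not overlap, where 13.5% and 17.2% of all genes were.

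**Figure D3:**
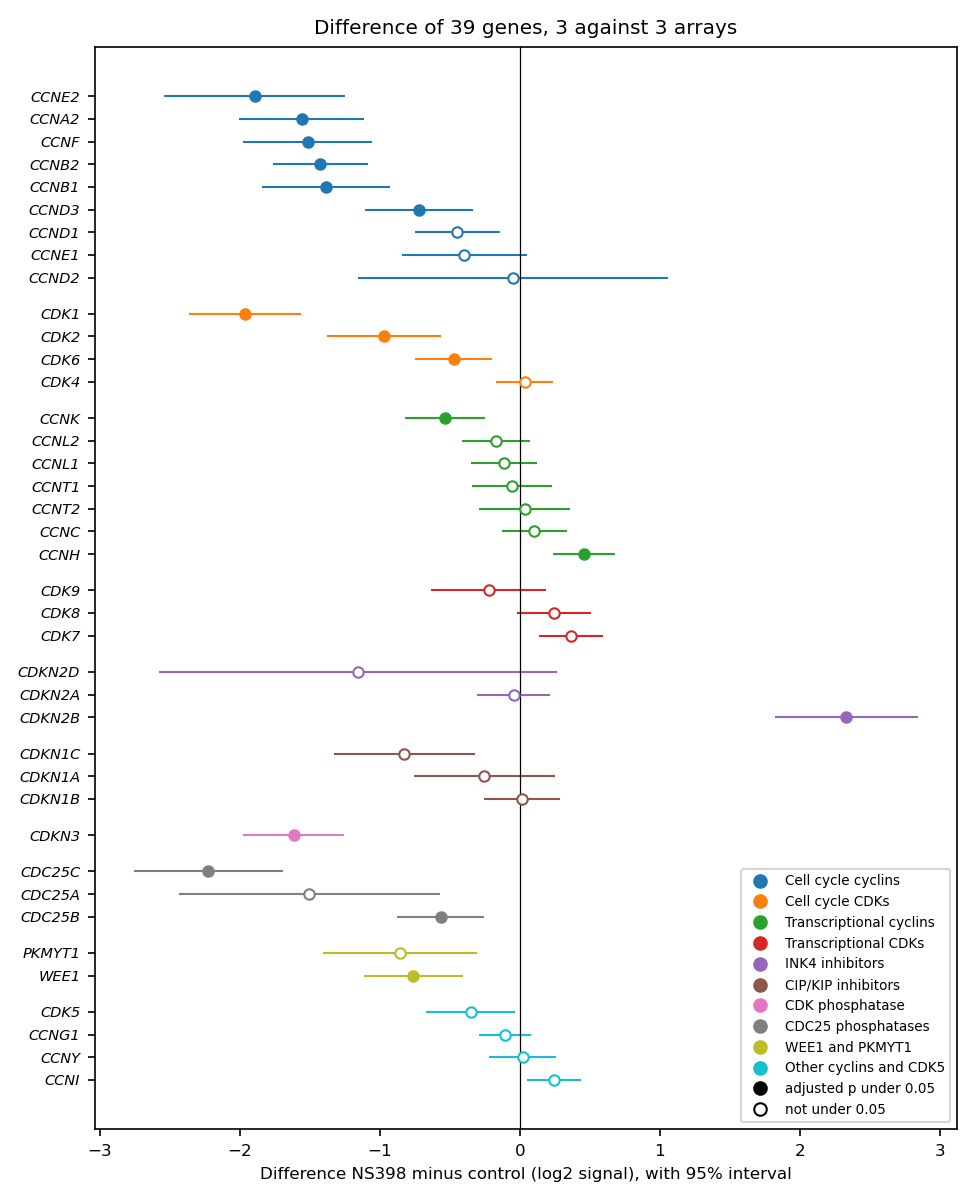
Difference between NS398 and control arrays (log2 signal, 3 against 3 arrays) with its 95% interval from the limma fit for the brightest probe set of each of the 39 genes, coloured by class, filled where the adjusted p was under 0.05. Filled points run from -2.23 for CDC25C to -0.47 for CDK6 on the left, and CCNH (0.46) and CDKN2B (2.33) are the 2 filled points on the right.

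The order of the arrays was much the same from gene to gene. Of the 14 genes that fell, control array 1 was the highest control in 13 and NS398 array 1 the lowest treated array in 13, and NS398 array 2 was the highest treated array in 10. Members are therefore not independent measurements of the treatment, and 6 arrays remain the number of observations.

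Over all 97 probe sets, 24 were called lower and 2 higher, where 3.17% and 3.26% of all probe sets were. Of the 58 probe sets beside the brightest of a gene, 46 had the sign of the brightest, and 30 of the 33 whose log2 signal averaged more than 7 did. The 3 brighter exceptions belonged to CCNT1 (0.01), CDK8 (-0.07) and CCNI (-0.60), and none passed. The dim exceptions belonged to CCNB2, CCND2, CCNE1, CDK2, CDK9, CDKN2A and CDC25C, and none passed either. A call of the brightest probe set was not shared by 1 or more other probe sets in CCNB2, CCND3, CCNF, CDK1, CDK2, CDK6, CCNK, CDKN2B and CDC25C, and the 10 other probe sets that passed were all of a gene called in the same direction. The precision depended on the level. The median SE was 0.18 for the 70 probe sets that averaged more than 7 and 0.83 for the 27 dimmer ones, of which 2 passed.

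**Figure D4:**
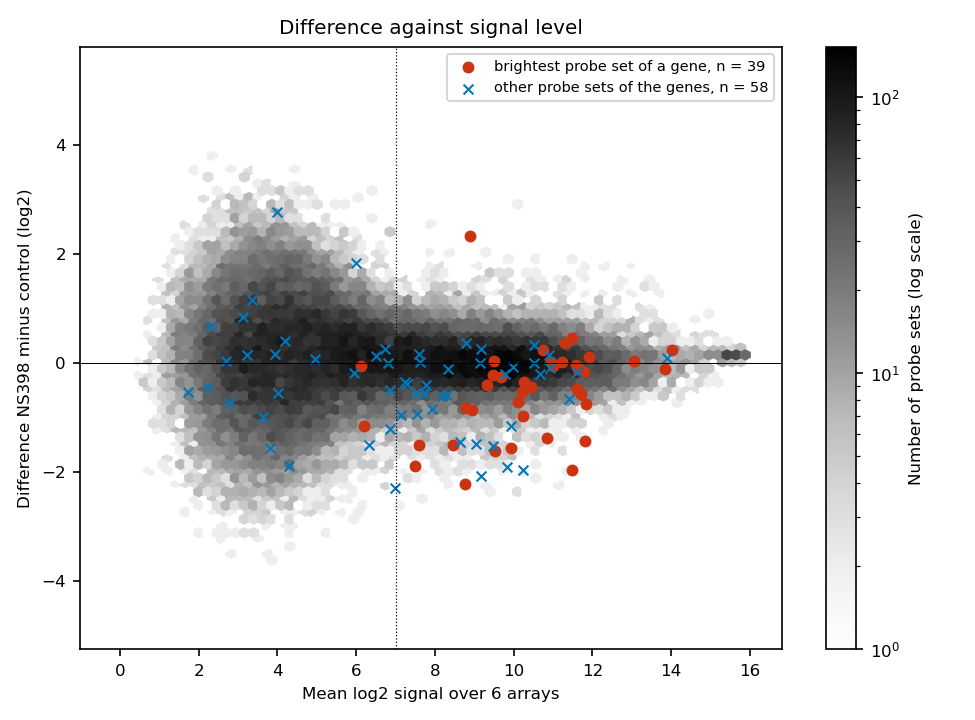
Difference between NS398 and control arrays against the mean log2 signal over the 6 arrays for all 54675 probe sets (grey, number per hexagon on a log scale), with the brightest probe set of each of the 39 genes (circles) and their 58 other probe sets (crosses), and a dotted line at 7. The grey cloud is wide below 7 and narrow above it, and most of the low circles lie in its narrow part.

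Windows upstream of the genes were read from the RefSeq promoter table (GRCh38.p14), which matched 32 of the 39 genes, and of the 8 genes that fell by 2-fold or more all but CCNE2 were matched. The 250 bases before each annotated start were searched on both strands for the CHR element (TTTGAA or TTCGAA) and the CCAAT box (CCAAT), a pair known from promoters of G2 and M phase genes, and for an E2F element (TTTCCCGC, TTTGGCGC or TTTCGCGC). No matches of different motifs overlapped in the members. The windows of CCNB2, CDK1, CDC25C and CDKN3 are shown as 4 of the 5 genes that fell by 2-fold or more and hold both a CHR and a CCAAT match (the other is CCNF), and that of CDKN2B because it rose, each 5′ to 3′ along the strand of the gene with matches in capitals (TTCAAA and ATTGG are matches on the opposite strand). They lie at chr15:59104896-59105145 (plus strand), chr10:60778228-60778477 (plus), chr5:138331805-138332054 (minus), chr14:54396757-54397006 (plus) and chr9:22009306-22009555 (minus), in each case just upstream of an annotated start of the gene. Where a gene has several starts, the window with the most CHR matches was taken.
CCNB2: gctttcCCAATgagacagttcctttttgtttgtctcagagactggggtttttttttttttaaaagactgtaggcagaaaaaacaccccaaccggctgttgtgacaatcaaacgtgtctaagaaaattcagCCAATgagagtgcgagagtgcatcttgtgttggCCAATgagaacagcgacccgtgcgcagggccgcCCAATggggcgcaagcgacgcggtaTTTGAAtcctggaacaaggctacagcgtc
CDK1: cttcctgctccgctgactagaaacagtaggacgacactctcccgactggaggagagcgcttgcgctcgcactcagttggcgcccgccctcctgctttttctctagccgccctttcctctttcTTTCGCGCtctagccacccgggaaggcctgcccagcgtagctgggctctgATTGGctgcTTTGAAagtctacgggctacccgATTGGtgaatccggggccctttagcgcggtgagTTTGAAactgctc
CDC25C: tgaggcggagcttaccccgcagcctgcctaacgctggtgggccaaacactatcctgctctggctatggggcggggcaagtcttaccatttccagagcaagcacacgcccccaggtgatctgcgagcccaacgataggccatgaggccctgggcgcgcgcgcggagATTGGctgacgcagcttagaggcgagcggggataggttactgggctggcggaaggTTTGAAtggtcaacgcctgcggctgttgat
CDKN3: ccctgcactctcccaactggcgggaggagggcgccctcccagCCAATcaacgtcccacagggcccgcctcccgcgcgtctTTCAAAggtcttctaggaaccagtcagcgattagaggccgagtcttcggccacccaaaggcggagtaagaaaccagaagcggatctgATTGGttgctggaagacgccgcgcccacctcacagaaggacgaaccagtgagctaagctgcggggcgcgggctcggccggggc
CDKN2B: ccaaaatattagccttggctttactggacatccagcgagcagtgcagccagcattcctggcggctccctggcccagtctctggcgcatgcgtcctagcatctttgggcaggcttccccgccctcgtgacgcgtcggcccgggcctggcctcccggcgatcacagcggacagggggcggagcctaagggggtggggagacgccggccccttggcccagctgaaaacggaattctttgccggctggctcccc

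The CHR match of CCNB2 began 29 bases and that of CDC25C 30 bases before the start, each with a CCAAT box further upstream, at 54 bases in CCNB2 and at 85 bases in CDC25C. CDK1 had CHR matches at 69 and 13 bases, CCAAT boxes at 78 and 46 bases and an E2F match at 128 bases. In CDKN3 the CHR match lay at 170 bases, further from the start than its nearer CCAAT box at 83 bases. The window of CDKN2B held none of the 3 motifs. Of the 7 matched genes that fell by 2-fold or more, 5 had a CHR match and 7 a CCAAT box in some window. CCNA2 and CCNB1 held neither TTTGAA nor TTCGAA in the 250 bases, and other spellings or positions of the element were not searched. Of the other 25 matched members, 2 had a CHR match and 11 a CCAAT box. In the table as a whole, 17.2% of genes had a CHR match, 37% a CCAAT box and 6.24% both, and over all windows these shares were 14.3%, 32% and 5.05%. The E2F letters were found in 1 of the 7 genes, in 1 of the other 25 and in 2.85% of all genes (2.32% of windows). A match describes letters in a window and not a bound site.

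Other genes of the pathway were taken from 7 lists and read in the same fit. Of 20 genes of the RB, E2F and DREAM group, which control the transcription of cell cycle genes, 8 fell and 0 rose (median -0.47), where 4.85% and 5.23% of all genes did, and 8.66% and 9.06% of those above a log2 signal of 7. The 4 with the smallest p were MYBL2 (-2.40 ± 0.26), E2F7 (-1.60 ± 0.19), FOXM1 (-1.81 ± 0.25) and E2F8 (-2.29 ± 0.33), whereas RB1 itself differed by 0.04 ± 0.15 and did not pass (adjusted p = 0.921). Of 13 checkpoint and mitotic entry genes, 8 fell and 0 rose (median -0.81), among them ENSA (-0.81 ± 0.10), AURKA (-1.40 ± 0.19), PLK1 (-1.52 ± 0.25) and CHEK1 (-0.96 ± 0.16). Both lists held activators and inhibitors of the cycle among the genes that fell, such as the repressors E2F7 and E2F8 and the checkpoint kinase CHEK1.

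Of 22 measured genes for the ubiquitin ligases that degrade cyclins and CDK inhibitors, 6 fell and 1 rose (median -0.02). All 22 averaged a log2 signal of more than 7, where 8.66% of all genes fell and 9.06% rose. UBE2C (-1.67 ± 0.20) and UBE2S (-0.81 ± 0.14), the conjugating enzymes of the anaphase-promoting complex, ANAPC11 (-0.50 ± 0.09), its RING subunit, and FBXO5 (-1.14 ± 0.18), its inhibitor, had the smallest p among those that fell, and FBXO4 rose by 0.75. In the remaining 4 lists few genes passed, beside the 4.85% and 5.23% of all genes called lower and higher. Of 13 adaptors and activators of CDKs 1 fell, CKS2 (-0.74 ± 0.13), a small protein that binds CDKs. Among partners of P-TEFb and of the Mediator kinase 0 of 10 fell and 1 rose, ELL2 (1.11 ± 0.21), a subunit of the super elongation complex. Of 12 further cyclins, CCNG2 fell (-1.37 ± 0.21) and CCNO rose (0.89 ± 0.20), and 0 of 13 further CDKs passed, with 1 at an unadjusted p under 0.05 (CDK17, -0.54 ± 0.14, adjusted p = 0.0513). The medians of these last 4 lists were -0.31, -0.05, 0.10 and -0.08, compared with 0.06 over all genes.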

How the data were processed

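Total RNA of HT29 cells was measured on 6 HG-U133 Plus 2.0 arrays, grouped by the treatment label. The deposited values are linear intensity values per probe set (0.1 to 80608.2), which the authors had summarised and scaled to a trimmed mean of 500. They differ from the quantile-normalised gcRMA values of the study's methods. The submitters' processing notes name affy, whose version was not given in the sources used here. Probe sets were named from the platform annotation, with symbols updated through RefSeq, and 41097 of 54675 name 1 gene. The log2 of each signal was taken as deposited.

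Tests used limma 3.58.1 in R 4.3.3 (lmFit, then eBayes with a variance trend and robust priors), with the treatment as sole factor. The prior degrees of freedom had a median of 7.07, compared with 1.36 for plain eBayes. The brightest probe set, by mean log2 signal, stood for a gene. Intervals are 95% intervals of that fit. The members, the other gene lists and the choice of the test were made with earlier results of these data known. Array values are given for genes called with a difference of at least 1, for every CDK inhibitor and for others named after their values were seen, and up to 4 called genes with the smallest p represent each further list, beside genes named after their values were seen (RB1, MNAT1, CDK12 and CDK13).

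Alternatives were plain eBayes, the SAM statistic of the study's methods over the 20 orders of the labels, an offset of 32, array weights, quantile normalisation, median centring, filters at a log2 signal of 4 or 7, averaging a gene's probe sets, a replicate block, and omission of each array. A simulation of 54675 probe sets took the level and fitted variance of each from these arrays and drew them independently of each other. Among the brighter probe sets (log2 signal over 7), 50 differences of each size were planted. At 1.5-fold, 2-fold, 4-fold and 8-fold, 12, 40, 50 and 48 were recovered. The simulation held no array order shared between genes and fewer differences than were called in the data. Its counts therefore do not give the recovery in the real arrays. Exact tests, motif searches and figures used Python 3.11.15 (scipy 1.17.1, matplotlib 3.10.9). Protein sequences were not used here.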

Additional observations from a re-analysis of the deposited data

How the results depend on the processing

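Outside plain limma and SAM, 14 alternatives were run for most genes. CCNA2, CCNB1, CCNE2, CCNF, CDK1, CDKN2B and CDKN3 passed in all 14. CCNB2, CDC25C and CDK2 passed in 13 and were lost with the mean of all probe sets, which brings in dim ones. No called gene changed direction under any alternative run. Of the 14 falls and 2 rises, 0 and 0 passed by plain limma and by SAM, in every class, as did 0 of the 24 and 0 of the 2 probe sets (19 genes had an unadjusted p under 0.05 by plain limma). The SAM result cannot decide whether the calls hold. The label orders behind it include the true order and its mirror image, so no probe set could reach an adjusted p under 0.05. With the mean of all probe sets 8 genes fell, 5 of them cell cycle cyclins or CDKs (median -0.58) and 0 transcriptional. The median of the cell cycle class was -1.18 above a log2 signal of 7, and that of the transcriptional class was -0.13 after median centring. Rises among the transcriptional genes numbered 2 with array weights, with a log2 signal above 4 or 7 and with the mean of all probe sets, and 0 after median centring, so that 1 gene (CDKN2B) and 1 probe set rose in all. A log2 signal above 4 left 4 probe sets that rose. An inhibitor, CDKN1C, fell (count 1) with array weights, a log2 signal above 4 or 7 and median centring.

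The replicate numbers did not pair the samples (correlations of the deviations -0.14, -0.06 and -0.10). With the replicate block, 11 genes fell, 1 gene and 1 probe set rose, and 0 transcriptional genes rose and 0 fell.

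Leaving out each array in turn gave 9 to 14 falls and 1 to 2 rises among the 39 genes, and 18 to 23 falls and 1 to 3 rises among the 97 probe sets. Among the cell cycle cyclins and CDKs 7 to 8 fell (median -1.10 to -0.76), among the transcriptional genes 0 to 1 fell and 0 to 1 rose, and among the inhibitors 0 to 1 fell. The cause of these changes was not tested. Signal over background limits the dim probe sets.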
